A study of Mus musculus with 24 samples.

Results

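The natriuretic peptide system of the mouse heart was described through 7 genes: the peptide genes *Nppa* and *Nppb*, the processing proteases *Corin* and *Furin*, and the receptors *Npr1*, *Npr2* and *Npr3*. All probe sets annotated to 1 of these symbols alone were taken, 9 of the 45037 on the array. Each gene was represented by its brightest probe set, which gave 7 of the 14763 genes tested, and the remaining probe sets, all of *Npr3*, served as a check. The symbols share a function, but they were chosen with earlier results of these data known. Signal also entered in picking the brightest probe set.

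Hearts came from FVB/N mice that had a myocardial infarction (MI) or a sham operation at 4 months of age, and were removed 8 weeks later. The 24 arrays form 6 groups of 4. The caPI3K MI and caPI3K sham hearts carried a constitutively active phosphoinositide 3-kinase (PI3K) transgene, which raises PI3K activity per the labels. The dnPI3K MI and dnPI3K sham hearts carried a dominant negative PI3K transgene, which lowers it, and the Ntg MI and Ntg sham hearts were nontransgenic. Both transgenes were expressed in the heart, and the labels call the dnPI3K model cardiac-specific. The sources used here do not give the promoters, the number of founder lines, or whether atria were kept with the ventricles. In the labels of caPI3K MI hearts a tag is named for sham, while its text, the sample titles and descriptions say MI, which was followed. Hearts were homogenized individually. No label ties each array to its own animal, and p-values here reflect array-to-array spread, which may be technical.

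*Nppa* encodes atrial natriuretic peptide and *Nppb* encodes B-type natriuretic peptide, hormones that heart muscle cells release when the wall is stretched and that promote salt excretion and vasodilation. In the adult heart *Nppa* is made mainly in the atria, and both genes are re-expressed in stressed ventricles. Corin, a membrane protease of cardiomyocytes, cleaves the *Nppa* precursor, and the convertase furin can cleave the *Nppb* precursor. Both hormones act through the guanylyl cyclase receptor encoded by *Npr1*, which raises cyclic GMP, whereas *Npr2* encodes the receptor for C-type natriuretic peptide and *Npr3* the receptor that clears all these peptides.

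Before deposit all arrays had been scaled to a shared level, with trimmed mean signals of 500.003 to 500.004. All 8 cardiomyocyte markers examined were at or above the 96.3th percentile of their own array on every array, so the samples read as heart muscle. A pair of arrays stood apart. Ntg sham replicate 4 lay with the infarcted hearts: its 10 fibroblast markers deviated by 0.31 log2 units from their means over all arrays, against -0.81 to -0.58 on the other Ntg sham arrays. The array of dnPI3K MI replicate 1 had a median signal of 150, against 103 to 118 elsewhere. Signal of the Y-linked gene *Eif2s3y* was present on 3 of the 4 caPI3K sham arrays and on none of the other arrays. Values without these arrays are given beside each result whose call they change, and beside some others. Leaving out the Y-linked arrays leaves 1 caPI3K sham array, which is then assumed to vary like the other groups.

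Changes are differences of group means on the scale log2(signal + 11.2), tested with limma in a model of all 6 groups, and a gene was called changed at a Benjamini-Hochberg adjusted p below 0.05 over all 14763 genes. After MI against sham, 2 of the 7 genes were called in caPI3K hearts (*Nppa* and *Nppb*, both up), 0 in dnPI3K hearts and 1 in Ntg hearts (*Nppa*, up). The background shares of all tested genes called were 1.11% in caPI3K hearts, 9.37% in dnPI3K hearts and 0.772% in Ntg hearts. In dnPI3K hearts 3232 genes had an unadjusted p below 0.05, none of them *Nppa* or *Nppb*. Among sham hearts, 3 genes were called in caPI3K against dnPI3K (*Nppa*, *Nppb* and *Corin*, all down, background 9.9%), 0 in caPI3K against Ntg (background 0.278%, with 1659 genes at an unadjusted p below 0.05) and 1 in dnPI3K against Ntg (*Nppa*, up, background 1.14%). Among infarcted hearts, *Npr3* was called in caPI3K against dnPI3K (down, background 4.23%) and in dnPI3K against Ntg (up, background 2.59%). None was called in caPI3K MI against Ntg MI, where limma called 0 of all genes (0%) and 683 had an unadjusted p below 0.05. The 3 differences between the MI effects of the genotypes also called 0 of all genes (0%), with 1501 genes at an unadjusted p below 0.05 for caPI3K minus dnPI3K, 817 for caPI3K minus Ntg and 1122 for dnPI3K minus Ntg. Comparisons that have a group in common share its 4 arrays, so they are not independent of each other. Overlap of arrays between groups is described below for single genes, and the share of all genes without overlap is not given here. *Npr1*, *Npr2* and *Furin* were called in none of the 12 comparisons.

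**Figure D1:**
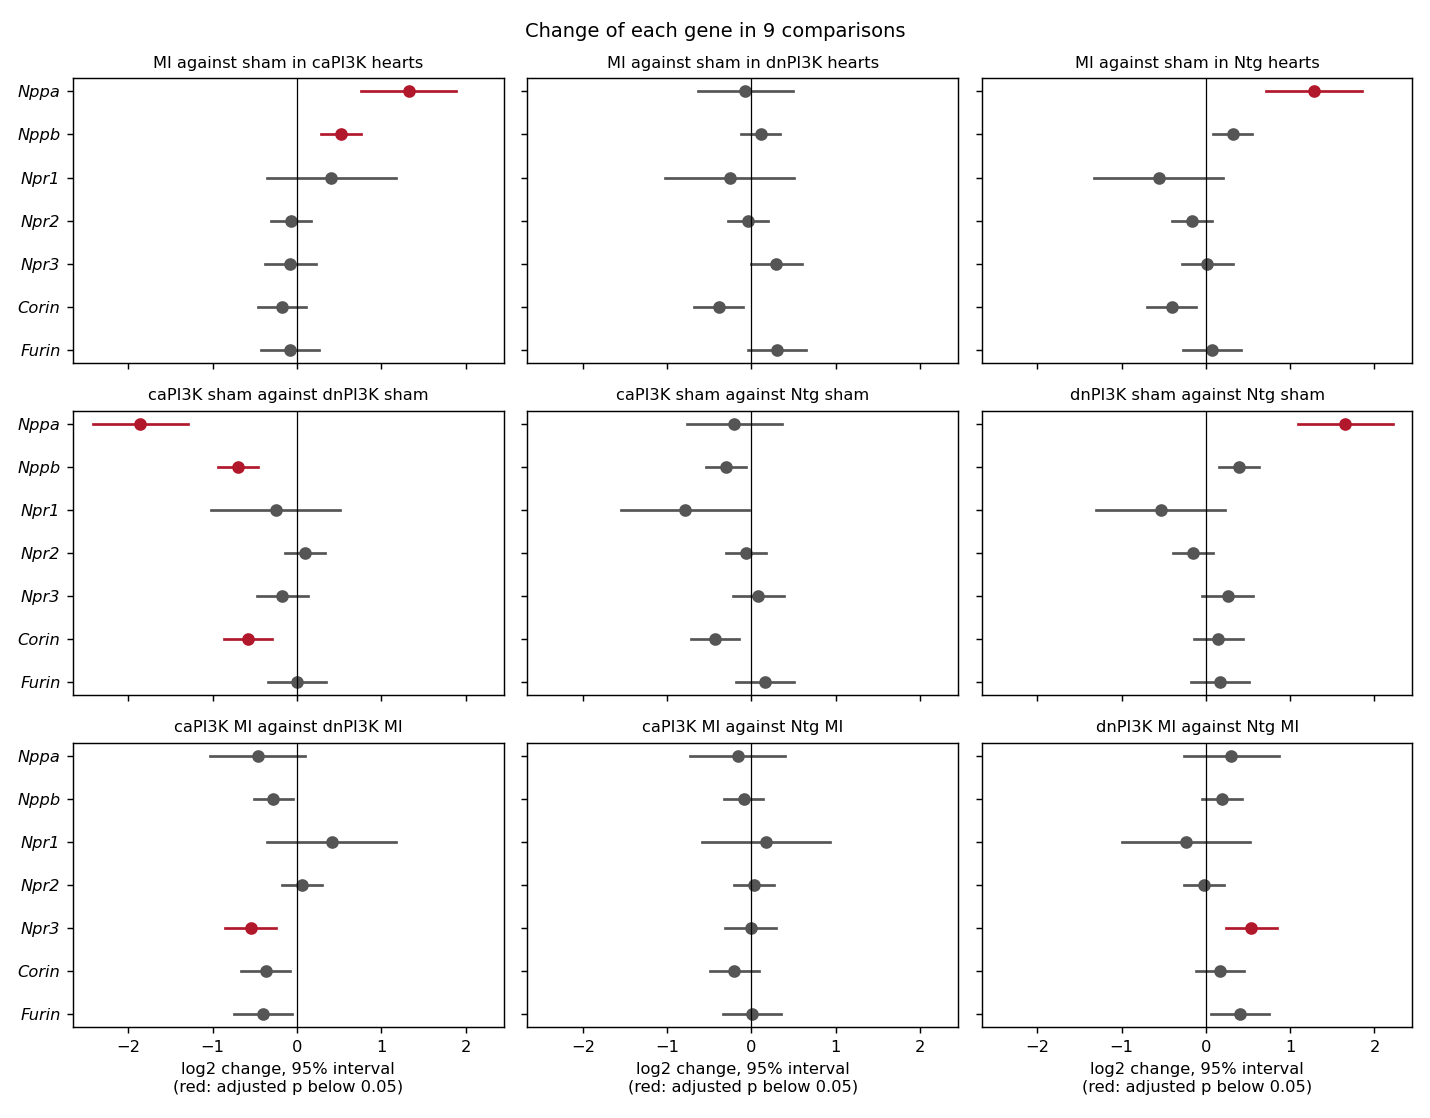
Change of each gene as a log2 difference (x axis) in MI against sham (top), among sham hearts (middle) and among infarcted hearts (bottom). Points are limma estimates with 95% intervals and red marks an adjusted p below 0.05: *Nppa* stands furthest to the right in MI against sham of caPI3K (1.32) and Ntg (1.28) hearts and in dnPI3K sham against Ntg sham (1.65), while *Npr2* stays near 0 throughout.

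*Nppa* and *Nppb* lie side by side on mouse chromosome 4 (RefSeq, GRCm38.p6), *Nppb* at chr4:147985786-147987205 and *Nppa* at chr4:148000722-148002074, with 13516 bases and 0 other annotated genes between them. Promoter entries were found in RefSeq for 7 of the 7 genes. The 250 bases before the transcript start are shown for the 2 peptide genes because these moved together on the arrays. They lie at chr4:148000472-148000721 for *Nppa* and chr4:147985650-147985899 for *Nppb*, both on the plus strand. The transcript start used for *Nppb* lies inside the annotated gene. Capitals mark matches, on either strand, to short motifs that cardiac or general transcription factors are known to bind.
Nppa: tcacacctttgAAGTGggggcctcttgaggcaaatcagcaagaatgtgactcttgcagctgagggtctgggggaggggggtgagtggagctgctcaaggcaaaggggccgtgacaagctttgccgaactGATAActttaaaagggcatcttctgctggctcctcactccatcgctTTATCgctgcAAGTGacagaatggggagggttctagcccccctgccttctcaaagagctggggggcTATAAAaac
Nppb: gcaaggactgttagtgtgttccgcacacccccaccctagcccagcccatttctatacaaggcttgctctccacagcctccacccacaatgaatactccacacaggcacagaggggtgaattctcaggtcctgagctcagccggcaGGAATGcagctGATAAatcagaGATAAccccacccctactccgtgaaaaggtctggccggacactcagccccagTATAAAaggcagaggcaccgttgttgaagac
Motifs searched on both strands were GATAA (bound by GATA factors), AAGTG (by NKX2-5), CATTCC (by TEAD factors), TATAAA and the CArG box (by SRF). No capital run belongs to more than 1 motif. In *Nppa* there were 2 matches to GATAA, beginning 121 and 75 bases before the start, 2 to AAGTG, at 239 and 65 bases, and 1 to TATAAA, at 9 bases. In *Nppb* there were 2 matches to GATAA, at 94 and 83 bases, 1 to CATTCC, at 105 bases, and 1 to TATAAA, at 31 bases. Of 32851 mouse promoters of this length, 22.6% held GATAA, 4.28% held it 2 or more times, 40.7% held AAGTG, 12.6% CATTCC, 12.4% TATAAA and 1.47% a CArG box. These matches describe the letters only. The receptor genes and *Corin* had 0 matches in their windows. *Furin*, with several listed starts, had 4 matches to AAGTG and 1 to TATAAA before 1 of them.

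*Nppa* ranged more widely over the arrays than any of the other 6 genes except the dim *Npr1*, with a 6.54-fold range of signal. In caPI3K MI hearts its signals were 43335, 44825, 35020 and 43214, against 17210, 19504, 21819 and 10218 in caPI3K sham hearts. In dnPI3K MI hearts they were 57149, 52900, 60358 and 58569, against 66782, 61694, 55371 and 57035 in dnPI3K sham hearts. In Ntg MI hearts they were 44902, 45808, 48484 and 46492, against 19734, 11869, 11340 and 49869 in Ntg sham hearts. All 8 dnPI3K arrays thus lay above every other array, whatever the operation. The caPI3K MI arrays lay above all caPI3K sham arrays, and the Ntg groups overlapped only through Ntg sham replicate 4. Mean signals were 41599 ± 4447 in caPI3K MI against 17188 ± 5013 in caPI3K sham, 57244 ± 3180 in dnPI3K MI against 60221 ± 5128 in dnPI3K sham, and 46422 ± 1522 in Ntg MI against 23203 ± 18187 in Ntg sham hearts (SD, n = 4 each). By mean log2 level the order was dnPI3K sham, dnPI3K MI, Ntg MI, caPI3K MI, Ntg sham and caPI3K sham, and no tested pair of neighbours in it passed the test.

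**Figure D2:**
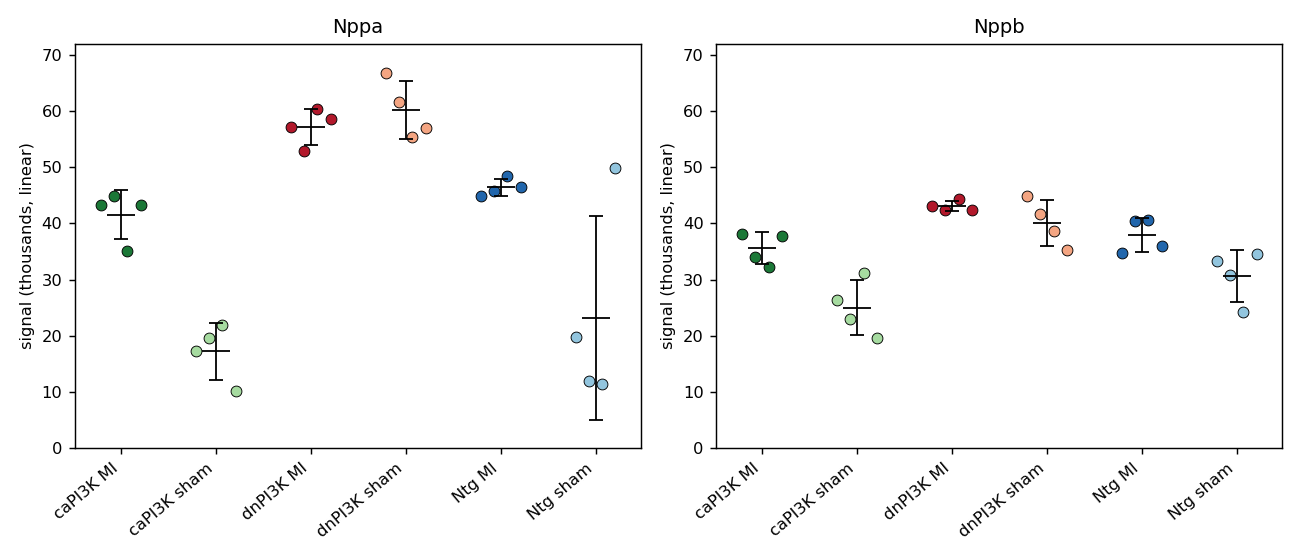
Signal of *Nppa* and *Nppb* on each array (linear y axis, in units of 1000) in the 6 groups; bars are the mean and SD of 4 arrays. The *Nppa* points of both dnPI3K groups lie between 52900 and 66782, and Ntg sham replicate 4 at 49869 stands away from the other Ntg sham arrays. Each panel is a different probe set, so levels are not compared between panels.

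With infarction *Nppa* rose by 1.32 log2 units in caPI3K hearts (SE 0.27, 95% interval 0.76 to 1.89, adjusted p = 0.0121), a 2.5-fold difference. In dnPI3K hearts its change was -0.07 (interval -0.64 to 0.49, adjusted p = 0.918). In Ntg hearts it rose by 1.28 (SE 0.27, interval 0.72 to 1.85, adjusted p = 0.0212). This Ntg call was kept in 7 of 17 alternatives, and was lost with only the Ntg groups in the fit (adjusted p = 0.202). Without Ntg sham replicate 4 the Ntg change was 1.74 at an adjusted p of 4.72e-07, whereas leaving out any 1 of the other 7 Ntg arrays left 1.03 to 1.30 at adjusted p values of 0.0512 to 0.12. The caPI3K call was kept in 13 of 16 alternatives. It was lost without caPI3K sham replicate 4, the lowest of its group (1.09, adjusted p = 0.0653).

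The MI effects on *Nppa* were compared with each other directly. The effect in caPI3K minus that in dnPI3K hearts was 1.39 (SE 0.39, interval 0.60 to 2.19, adjusted p = 0.181), and fitting only those 4 groups it passed at an adjusted p of 0.0139. The effect in caPI3K minus that in Ntg hearts was 0.04 (interval -0.76 to 0.84, adjusted p = 0.996), and -0.42 without Ntg sham replicate 4 (adjusted p = 0.672). The effect in dnPI3K minus that in Ntg hearts was -1.35 (SE 0.39, interval -2.15 to -0.56, adjusted p = 0.506). Without Ntg sham replicate 4 this last difference was -1.81 at an adjusted p of 0.000911. With all 24 arrays in the fit, none of the 3 differences passed.

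Among sham hearts *Nppa* was already high in dnPI3K. It was lower in caPI3K sham than in dnPI3K sham hearts by a log2 difference of -1.86 (SE 0.27, adjusted p = 4.15e-05), and this call was kept in 17 of 17 alternative analyses. The caPI3K sham arrays alone are numbered 1410 to 1417, above all others. In every comparison with this group, group and number block cannot be told apart, and no alternative addresses this. In caPI3K sham against Ntg sham hearts the change was -0.21 (interval -0.77 to 0.36, adjusted p = 0.853), and without Ntg sham replicate 4 its estimate was 0.26. In dnPI3K sham hearts *Nppa* rose by 1.65 against Ntg sham hearts (SE 0.27, adjusted p = 0.000927), a 3.15-fold difference, and by 2.12 without Ntg sham replicate 4. Without the sham arrays numbered 415 to 418, which are replicates 1 and 2 of the dnPI3K sham and Ntg sham groups, this comparison gave 1.24 at an adjusted p of 0.307. With only the compared groups in the fit it did not pass either (adjusted p = 0.0555). The call was kept in 15 of 17 alternatives. No arrays of dnPI3K and Ntg sham hearts overlapped.

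Among infarcted hearts the *Nppa* groups came closer. The change was -0.47 in caPI3K MI against dnPI3K MI (interval -1.03 to 0.10, adjusted p = 0.425), -0.16 in caPI3K MI against Ntg MI (adjusted p = 0.999) and 0.30 in dnPI3K MI against Ntg MI (interval -0.26 to 0.87, adjusted p = 0.661). The arrays of each pair of groups did not overlap, although caPI3K MI and Ntg MI were separated only by a narrow gap (44825 against 44902). With only the 2 groups of a comparison in the fit, the first difference passed at an adjusted p of 0.00985 and the last at 0.0384. The spread of *Nppa* within groups differed, with an SD of 0.16 log2 units in caPI3K MI, 0.08 in dnPI3K MI, 0.05 in Ntg MI and 0.99 in Ntg sham hearts.

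*Nppa* was close to the brightest probe set on the dnPI3K arrays. It read 88.7 to 92.7% of the highest signal of its array in dnPI3K MI and 79.3 to 84.9% in dnPI3K sham hearts, against 68.6 to 73.5% in Ntg MI hearts. In caPI3K MI hearts the share was 61.9 to 68.4%, against 15.3 to 33.9% in caPI3K sham hearts. Whether the signal of this probe set flattens near the top of the range was not tested. The caPI3K sham arrays with *Eif2s3y* signal read 17210, 19504 and 21819 for *Nppa*, against 10218 on the array without it. All 4 caPI3K MI arrays lacked *Eif2s3y* signal. Within the arrays that lack it, the *Nppa* change with MI in caPI3K hearts was 2.02 at an adjusted p of 0.0802, with 1 sham array left and assumed to vary like the other groups.

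*Nppb* ordered the groups much as *Nppa* did, with dnPI3K MI above dnPI3K sham on average, over a smaller 2.28-fold range of signal. Its signals were 38071, 34111, 32278 and 37812 in caPI3K MI hearts, against 26370, 22916, 31145 and 19655 in caPI3K sham hearts. They were 43138, 42491, 44437 and 42446 in dnPI3K MI hearts, against 44907, 41740, 38645 and 35275 in dnPI3K sham hearts. They were 34704, 40382, 40594 and 35969 in Ntg MI hearts, against 33281, 30738, 24135 and 34477 in Ntg sham hearts. The caPI3K groups did not overlap, nor did the Ntg groups, which were separated by a narrow gap, while the dnPI3K groups overlapped.

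With infarction *Nppb* rose by 0.52 in caPI3K hearts (SE 0.11, interval 0.29 to 0.76, adjusted p = 0.0178), a 1.44-fold difference. This call was kept in 10 of 16 alternatives. Leaving out 1 of the 8 arrays at a time kept it 4 times, with changes of 0.42 to 0.64. It was lost without caPI3K sham replicate 2 or 4 and without caPI3K MI replicate 1 or 4, at adjusted p values of 0.0722 to 0.0959. Without the Y-linked caPI3K sham arrays, with 1 sham array left, it was 0.85 (adjusted p = 0.0318). In dnPI3K hearts the change was 0.11 (interval -0.13 to 0.34, adjusted p = 0.645), and in Ntg hearts 0.32 (interval 0.08 to 0.55, adjusted p = 0.227). After quantile normalization of the deposited signals both passed, at 0.34 (adjusted p = 0.0338) in dnPI3K and 0.51 (adjusted p = 0.0142) in Ntg hearts. The MI effect in caPI3K minus that in dnPI3K hearts was 0.42 (interval 0.08 to 0.75, adjusted p = 0.355).

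In sham hearts *Nppb* was lower in caPI3K than in dnPI3K by a log2 difference of -0.70 (SE 0.11, adjusted p = 0.000152), kept in 17 of 17 alternatives. Its difference was -0.30 in caPI3K sham against Ntg sham hearts (interval -0.54 to -0.07, adjusted p = 0.285) and 0.40 in dnPI3K sham against Ntg sham hearts (interval 0.16 to 0.63, adjusted p = 0.102). The dnPI3K sham arrays all lay above the Ntg sham arrays, by a narrow gap (35275 against 34477), and the difference did not pass. Among infarcted hearts *Nppb* did not pass in any comparison, with -0.28 in caPI3K against dnPI3K (adjusted p = 0.195), -0.09 in caPI3K against Ntg (adjusted p = 0.999) and 0.19 in dnPI3K against Ntg (adjusted p = 0.468).

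**Figure D3:**
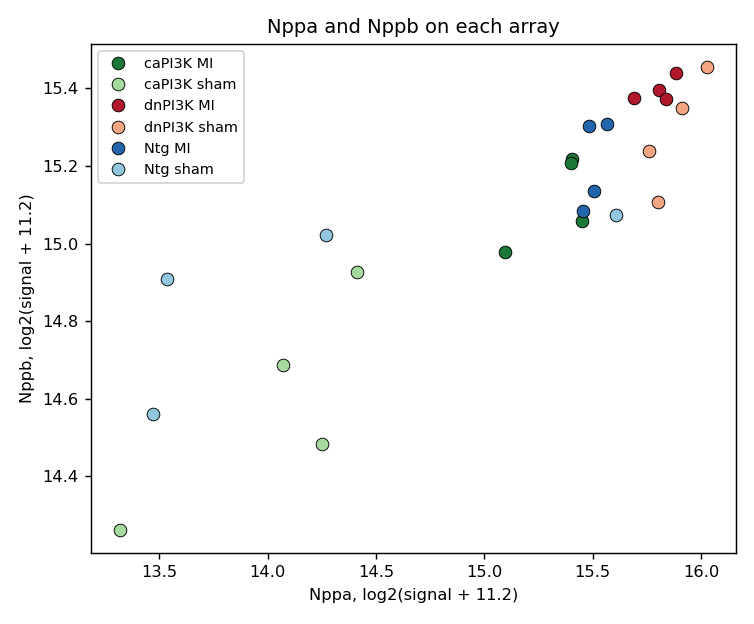
*Nppa* (x axis) against *Nppb* (y axis) on each of the 24 arrays, as log2(signal + 11.2), coloured by group. The caPI3K sham and most Ntg sham arrays form the lower left, and the dnPI3K arrays the upper right.

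Over the 24 arrays *Nppa* and *Nppb* had a Pearson r of 0.884 and a Spearman rho of 0.901, and r was 0.814 without the 2 arrays farthest from the median of *Nppa*. With the group means removed r was 0.648. This describes arrays that share groups, scaling and tissue make-up. Of the other pairs of the 7 genes the largest r in size was that of *Npr2* with *Npr3*, at -0.451. Among all other tested genes, those most like *Nppa* over the 24 arrays were *Ccn2* (r 0.845), *Sdc4* (0.843), *Prkar1a* (0.836), *Ccnd2* (0.827) and *Ckap4* (0.819). Those most like *Nppb* were *Ccn2* (0.892), *Prkar1a* (0.888), *Itih4* (0.864), *Serpinb6a* (0.854) and *P4hb* (0.851). *Ccn2*, a matricellular growth factor induced by mechanical load, and *Prkar1a*, a regulatory subunit of protein kinase A, stood in both lists. With the group means removed, *Ccn2* had r of 0.375 with *Nppa* and 0.553 with *Nppb*, and *Prkar1a* 0.661 and 0.69.

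The *Ccn2* signals were 11222, 10427, 10112 and 8636 in caPI3K MI hearts, against 4562, 4593, 6947 and 4209 in caPI3K sham hearts. In dnPI3K hearts they were 17471, 19301, 17042 and 14696 after MI, against 11452, 13086, 11708 and 9670 after sham. In Ntg hearts they were 12543, 12830, 9968 and 11813 after MI, against 7983, 5583, 5627 and 6659 after sham. With MI *Ccn2* rose by 1.01 in caPI3K (adjusted p = 0.00018), by 0.58 in dnPI3K (adjusted p = 0.00595) and by 0.87 in Ntg hearts (adjusted p = 0.00186). It was also lower in caPI3K sham than in dnPI3K sham hearts, at -1.20 (adjusted p = 7.85e-07), and in caPI3K MI than in dnPI3K MI hearts, at -0.76 (adjusted p = 0.000834). Relative to Ntg it was higher in dnPI3K hearts, by 0.84 after sham (adjusted p = 0.000619) and by 0.54 after MI (adjusted p = 0.0258).

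*Corin* was highest on average in dnPI3K sham hearts, then Ntg sham, dnPI3K MI, Ntg MI, caPI3K sham and caPI3K MI hearts. Its signals were 5281, 5337, 5290 and 5378 in caPI3K MI hearts, against 5722, 6609, 5160 and 6750 in caPI3K sham hearts. They were 6369, 7515, 8664 and 5423 in dnPI3K MI hearts, against 9784, 9682, 7210 and 9676 in dnPI3K sham hearts. They were 5071, 6066, 7077 and 6512 in Ntg MI hearts, against 8892, 9472, 8868 and 5864 in Ntg sham hearts. Ntg sham replicate 4 and dnPI3K sham replicate 3 were the low arrays of their groups, and the caPI3K MI arrays lay within an SD of 0.01 log2 units.

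*Corin* was lower in caPI3K sham than in dnPI3K sham hearts by a log2 difference of -0.58 (SE 0.14, interval -0.87 to -0.29, adjusted p = 0.00719), with no overlap of arrays. This call was lost without the sham arrays numbered 415 to 418 (-0.47, adjusted p = 0.139) and without the caPI3K sham arrays that carry Y-linked signal (-0.42, adjusted p = 0.498, with 1 caPI3K sham array left). In caPI3K sham against Ntg sham hearts the change was -0.43 (adjusted p = 0.194), and it passed without Ntg sham replicate 4 (-0.59, adjusted p = 0.012). With MI the change was -0.18 in caPI3K (adjusted p = 0.685), -0.39 in dnPI3K (interval -0.68 to -0.10, adjusted p = 0.0864) and -0.41 in Ntg hearts (interval -0.70 to -0.12, adjusted p = 0.202). Without Ntg sham replicate 4 the Ntg change passed, at -0.56 (adjusted p = 0.00914). Without dnPI3K sham replicate 3 the dnPI3K change passed, at -0.50 (adjusted p = 0.0298), and without dnPI3K MI replicate 3 it passed at an adjusted p of 0.0296.

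*Furin* ranged from 405 to 1099 in signal, and the highest value was that of dnPI3K MI replicate 1, the array with the high median. The other 3 dnPI3K MI arrays read 491 to 579, against 427 to 602 in Ntg MI hearts. The nearest comparisons to a call were caPI3K MI against dnPI3K MI (-0.40, interval -0.75 to -0.06, adjusted p = 0.21) and dnPI3K MI against Ntg MI (0.41, interval 0.06 to 0.75, adjusted p = 0.235). Both contain that array, and without it they were -0.15 (adjusted p = 0.653) and 0.15 (adjusted p = 0.66).

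**Figure D4:**
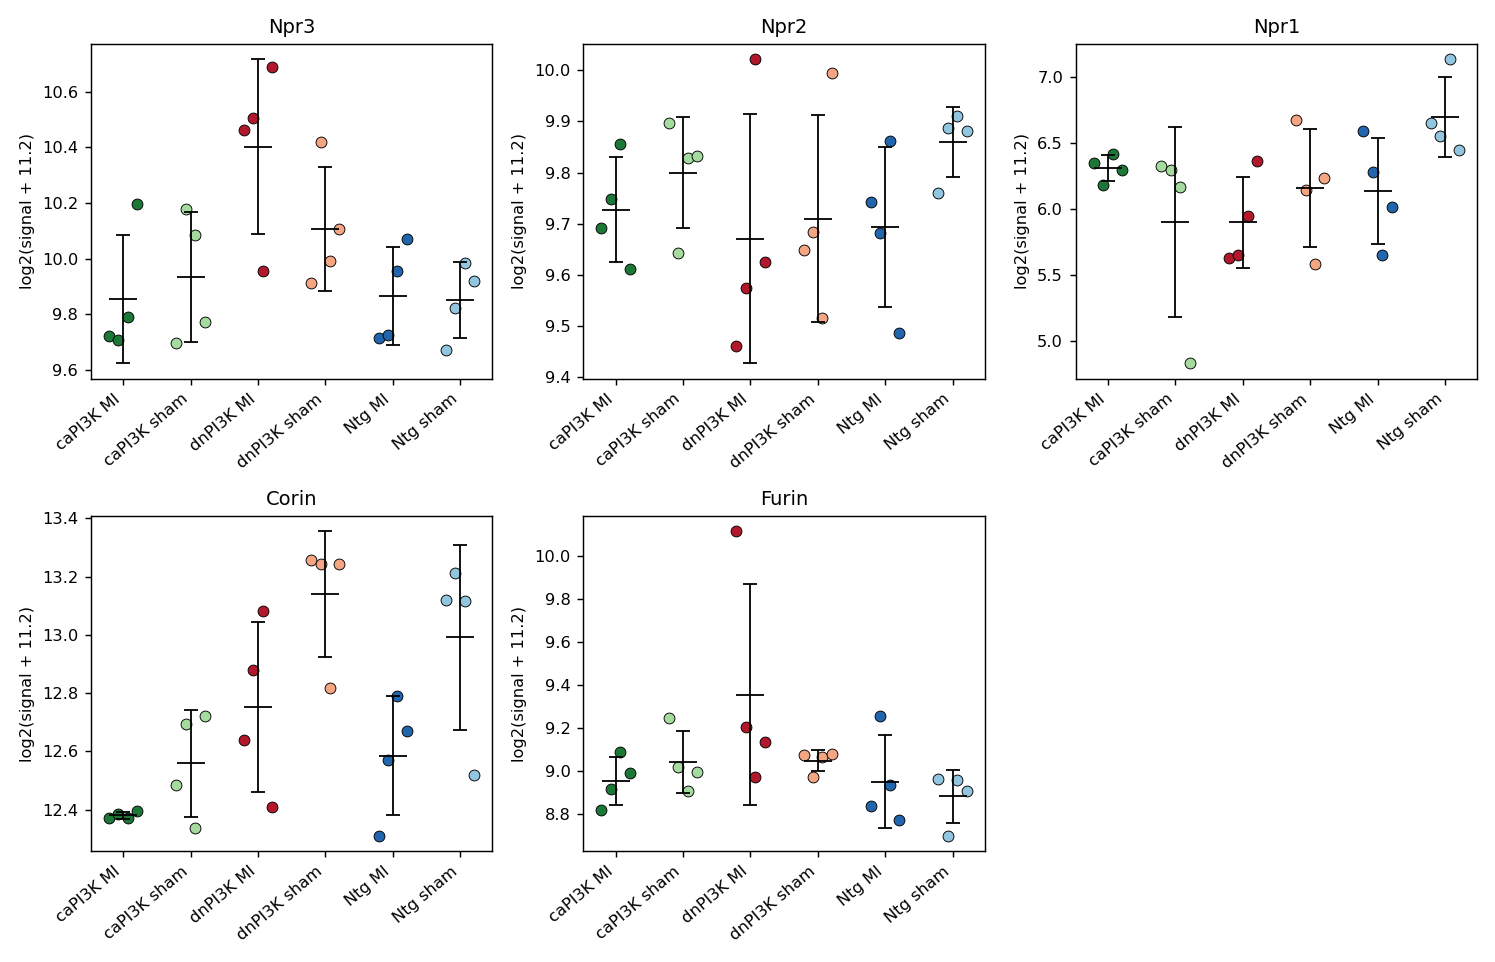
*Npr3*, *Npr2*, *Npr1*, *Corin* and *Furin* on each array as log2(signal + 11.2) (y axis, scaled per panel) in the 6 groups; bars are the mean and SD of 4 arrays. For *Npr3*, 3 of the 4 dnPI3K MI arrays lie above every other array; for *Corin*, the caPI3K MI arrays nearly coincide.

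*Npr3*, the clearance receptor, was called between infarcted genotypes with all 24 arrays in the fit. Its brightest probe set read 833, 825, 875 and 1163 in caPI3K MI, 1399, 1441, 982 and 1642 in dnPI3K MI, and 828, 835, 981 and 1063 in Ntg MI hearts. In sham hearts it read 819 to 1148 in caPI3K, 951 to 1358 in dnPI3K and 805 to 1003 in Ntg. The dnPI3K MI arrays except replicate 3 were higher than every other array. The level was lower in caPI3K MI than in dnPI3K MI hearts by a log2 difference of -0.55 (SE 0.15, interval -0.85 to -0.25, adjusted p = 0.0291). In dnPI3K MI hearts it rose by 0.54 against Ntg MI hearts (SE 0.15, interval 0.24 to 0.84, adjusted p = 0.0461). Both are near the threshold: the first was kept in 7 of 18 alternatives and the second in 4 of 18. Without dnPI3K MI replicate 1 they were -0.53 (adjusted p = 0.0733) and 0.52 (adjusted p = 0.103). Leaving out dnPI3K MI replicate 2 or 4 ended both calls as well. Leaving out caPI3K MI replicate 1, 2 or 3 ended the first, at adjusted p values of 0.078 to 0.101, and leaving out any 1 Ntg MI array ended the second, at 0.0505 to 0.138.

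The other 2 *Npr3* probe sets had the same signs without passing. For caPI3K MI against dnPI3K MI they gave -0.33 (adjusted p = 0.542) and -0.76 (adjusted p = 0.34), and for dnPI3K MI against Ntg MI they gave 0.64 (adjusted p = 0.17) and 0.58 (adjusted p = 0.528). Their signals reach down to 167 and 41, and they correlated with the brightest probe set at r of 0.506 and 0.456 over the 24 arrays. With MI against sham the brightest probe set changed by -0.08 in caPI3K (adjusted p = 0.903), 0.30 in dnPI3K (adjusted p = 0.241) and 0.01 in Ntg hearts (adjusted p = 0.987). Without dnPI3K MI replicate 3 the dnPI3K change passed, at 0.44 (adjusted p = 0.0488). The genes most like *Npr3* over the arrays were *Lrp6* (r 0.721), *Arhgap1* (0.72), *Cnppd1* (0.717), *Ccdc68* (0.71) and *Synm* (0.706), and without the 2 arrays farthest from the median of *Npr3* these were 0.502 to 0.753.

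*Npr2*, the receptor for C-type natriuretic peptide, kept within 693 to 1028 over all arrays, a 1.48-fold range that was the narrowest of the 7 genes. Its largest estimate among the 9 comparisons of groups was -0.17, for MI in Ntg hearts (interval -0.40 to 0.07, adjusted p = 0.632). *Npr1*, the receptor for both heart peptides, was dim, with signals of 17.2 to 129 and a percentile on its own array of 17.1 to 52.7. It lay above the 40th percentile on 8 of the 24 arrays, which was enough to pass the filter of at least 4. The Ntg sham arrays were all among these 8. Over the 9 comparisons of groups its estimates ranged from -0.79 in caPI3K sham against Ntg sham hearts (interval -1.55 to -0.03, adjusted p = 0.427) to 0.41 in caPI3K MI against dnPI3K MI hearts (interval -0.35 to 1.17, adjusted p = 0.646). The caPI3K sham and Ntg sham arrays were separated only by a narrow gap at dim signals (68.9 against 75.8), and the difference did not pass. The wide intervals reach a 2-fold fall in some comparisons and a 2-fold rise in others, so a change of *Npr1* was neither called nor excluded.

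Ligand and clearance partners of the system formed a list of 12 further genes, all tested, among them *Nppc* (C-type natriuretic peptide), neprilysin (*Mme*), which degrades the peptides, and the convertase *Pcsk6*, which activates corin. In dnPI3K MI against dnPI3K sham hearts 1 rose and 1 fell, beside 9.37% of all genes called: *Pcsk5*, a proprotein convertase, by 1.49 (SE 0.26, adjusted p = 0.000532), and *Mme*, which fell by 0.84 (SE 0.20, adjusted p = 0.00747). *Pcsk6* fell by 0.40 in caPI3K sham against dnPI3K sham hearts (adjusted p = 0.0179), alone of the 12, beside 9.9% of all genes called. In caPI3K MI against dnPI3K MI hearts *Fap*, a serine protease of activated fibroblasts, was higher by 0.80 (adjusted p = 0.000789), beside 4.23% of all genes called. No partner was called in the other comparisons, where 0 to 2.59% of all genes were called. The median change of the list stayed between -0.07 and 0.10 in all 12. *Nppc* was dim, at signals of 5.26 to 127, and was not called.

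Of 22 genes of cyclic GMP signalling, 20 were tested. *Pde1c*, a calmodulin-dependent phosphodiesterase that degrades cyclic GMP and cyclic AMP, differed most. Its signals in sham hearts were 260, 216, 206 and 179 in caPI3K, 950, 1204, 882 and 1082 in dnPI3K, and 684, 583, 559 and 382 in Ntg. After MI they were 290, 410, 331 and 222 in caPI3K, 967, 746, 1040 and 739 in dnPI3K, and 547, 511, 914 and 705 in Ntg. The caPI3K arrays did not overlap the dnPI3K arrays in either operation. *Pde1c* was lower in caPI3K than in dnPI3K hearts by a log2 difference of -2.20 after sham (SE 0.19, adjusted p = 1.71e-08) and -1.46 after MI (adjusted p = 2.33e-05). It was -1.30 in caPI3K sham against Ntg sham hearts (adjusted p = 0.00334) and 0.91 in dnPI3K sham against Ntg sham hearts (adjusted p = 0.0132).

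The remaining calls of the cyclic GMP list were few. *Gucy1a1*, a subunit of soluble guanylyl cyclase, fell by 0.47 in caPI3K sham against dnPI3K sham hearts (adjusted p = 0.00652). *Ppp1r12a*, the myosin phosphatase subunit that protein kinase G acts on, fell by 0.26 there (adjusted p = 0.0276) and by 0.44 in caPI3K MI against dnPI3K MI hearts (adjusted p = 0.000897), and rose by 0.35 in dnPI3K MI against Ntg MI hearts (adjusted p = 0.0108). In all, 3 of the 20 fell and 0 rose in caPI3K sham against dnPI3K sham hearts, beside 9.9% of all genes called, with a list median of -0.20. With MI against sham, limma called 0 of the 20 in each genotype, beside 1.11% of all genes in caPI3K, 9.37% in dnPI3K and 0.772% in Ntg hearts. At an unadjusted p below 0.05 were 8 of the 20 in caPI3K, 6 in dnPI3K and 1 in Ntg hearts. Of all 14763 genes, 1793, 3232 and 1773 were below it in the same order.

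Of 23 transcription factors and cofactors known to act on the peptide genes, all were tested. With MI in dnPI3K hearts 3 rose and 3 fell, beside 9.37% of all genes called, with medians of 0.02 for the list and 0.01 for all genes. *Srf* rose by 0.35 (adjusted p = 0.0118), *Mef2a* fell by 0.30 (adjusted p = 0.00496), *Nfatc4*, a calcineurin target, rose by 0.71 (adjusted p = 0.0231), and *Gata6* fell by 0.37 (adjusted p = 0.0304). *Gata6* also fell with MI in caPI3K hearts, by 0.48 (adjusted p = 0.0235), alone of the list, beside 1.11% of all genes called. In Ntg hearts 0 of the list were called (0.772% of all genes), with 3 at an unadjusted p below 0.05. *Mef2a* also fell by 0.24 in dnPI3K MI against Ntg MI hearts (adjusted p = 0.0496), alone of the list, beside 2.59% of all genes called. In caPI3K sham against dnPI3K sham hearts 3 of the 23 rose and 0 fell, beside 9.9% of all genes called. These were *Nkx2-5*, by 0.44 (adjusted p = 0.00409), *Tead1*, by 0.49 (adjusted p = 0.0261), and *Mef2d*, by 0.28 (adjusted p = 0.0378).

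Of 14 further fetal and wall-stress genes, 12 were tested. With MI 1 rose in caPI3K hearts (*Ccn2*), 5 in dnPI3K and 2 in Ntg hearts (*Ccn2* and *Actn1*), and 0 fell. Of all genes 1.11% were called in caPI3K, 9.37% in dnPI3K and 0.772% in Ntg hearts. The list median was 0.14 in caPI3K, 0.58 in dnPI3K and 0.48 in Ntg hearts. In dnPI3K hearts, where *Nppa* and *Nppb* were not called, *Fhl1* rose by 0.93 (adjusted p = 4.98e-05), *Synpo2l* by 1.14 (adjusted p = 4.34e-05), *Rcan1* by 1.35 (adjusted p = 0.000264) and *Acta1*, skeletal alpha-actin, by 0.96 (adjusted p = 0.000676). In caPI3K sham against dnPI3K sham hearts 3 of the 12 rose and 1 fell (*Ccn2*), beside 9.9% of all genes called. Those that rose were *Acta1*, by 0.94 (adjusted p = 0.00051), *Synpo2l*, by 0.68 (adjusted p = 0.00209), and *Fhl1*, by 0.42 (adjusted p = 0.0253). Smooth muscle actin, *Acta2*, fell by 0.48 in caPI3K MI against dnPI3K MI hearts (adjusted p = 0.0349). There 2 of the 12 fell (*Acta2* and *Ccn2*), beside 4.23% of all genes called.

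*Nppa* being an atrial transcript, 12 other atrial cardiomyocyte markers were listed, of which 10 were tested. With MI in Ntg hearts 1 of the 10 rose, beside 0.772% of all genes called, and 6 had an unadjusted p below 0.05. The 1 that rose was *Sln*, atrial sarcolipin, by 2.18 (SE 0.52, adjusted p = 0.039), with signals of 1904, 4523, 1566 and 2819 in Ntg MI against 396, 196, 602 and 1746 in Ntg sham hearts. As for *Nppa*, Ntg sham replicate 4 was the highest of its group. The summed signal of the 10 markers was 11151 to 19414 in Ntg MI against 5242 to 12236 in Ntg sham hearts, and the part of these markers in the *Nppa* result was not tested. With MI in caPI3K hearts 0 of the 10 were called, beside 1.11% of all genes, with 3 at an unadjusted p below 0.05. The sum was 6711 to 11276 in caPI3K MI against 10764 to 16856 in caPI3K sham hearts, and these ranges overlap.

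Between dnPI3K sham and Ntg sham hearts 0 of the 10 atrial markers were called, beside 1.14% of all genes, with 2 at an unadjusted p below 0.05. Their sums were 7013 to 12721 in dnPI3K sham against 5242 to 12236 in Ntg sham hearts. In caPI3K sham against dnPI3K sham hearts 1 of the 10 rose, beside 9.9% of all genes called. It was *Kcnj3*, a potassium channel subunit, by 0.83 (adjusted p = 0.0053). Sums were 10764 to 16856 in caPI3K sham against 7013 to 12721 in dnPI3K sham hearts. In dnPI3K MI against Ntg MI hearts 3 of the 10 fell, beside 2.59% of all genes called. These were the atrial myosin light chains *Myl7* (-2.01, adjusted p = 0.00572) and *Myl4* (-1.30, adjusted p = 0.0265), and *Stard10* (-0.49, adjusted p = 0.0287). The *Myl7* signals were 888, 1135, 797 and 406 in dnPI3K MI hearts, against 2142, 4546, 2202 and 4186 in Ntg MI hearts. With MI in dnPI3K hearts *Dkk3* rose by 1.48 (adjusted p = 0.000242) and *Stard10* fell by 0.42 (adjusted p = 0.0304), beside 9.37% of all genes called. Atrial sums were 6801 to 9314 in dnPI3K MI against 7013 to 12721 in dnPI3K sham hearts. In caPI3K MI against dnPI3K MI hearts *Kcnj3* was higher by 0.73 (adjusted p = 0.0278) and *Dkk3* lower, at -1.14 (adjusted p = 0.00378), beside 4.23% of all genes called. Against the Ntg MI arrays, atrial sums were smaller in dnPI3K MI hearts and overlapped in dnPI3K sham hearts. The part of atrial markers in the *Nppa* levels was not tested. No atrial or fibroblast marker was listed at 0 on any array.

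**Figure D5:**
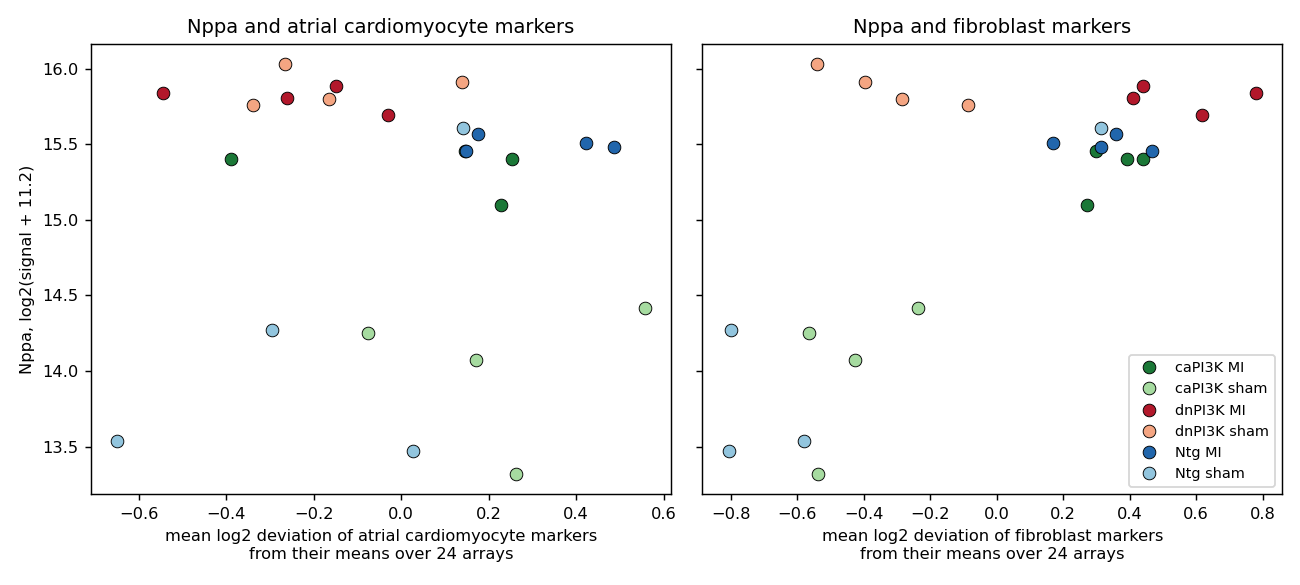
*Nppa* as log2(signal + 11.2) (y axis) against the mean log2 deviation of 10 atrial cardiomyocyte markers (left) and 10 fibroblast markers (right) on each of the 24 arrays, coloured by group. Ntg sham replicate 4 lies with the Ntg MI arrays in the fibroblast panel. The dnPI3K sham arrays combine high *Nppa* with fibroblast deviations of -0.54 to -0.09, below every MI array and above the other Ntg sham arrays.

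The 10 fibroblast markers moved with infarction. With MI 4 rose in caPI3K (1.11% of all genes called), 6 in dnPI3K (9.37%) and 5 in Ntg hearts (0.772%), and 0 fell. Their summed signal was 95643 to 107276 in caPI3K MI against 65847 to 75997 in caPI3K sham, 105593 to 130466 in dnPI3K MI against 74922 to 87304 in dnPI3K sham, and 93603 to 111009 in Ntg MI against 58374 to 106683 in Ntg sham hearts. In RNA from tissue of mixed cells, fewer cells of a type and less RNA per cell cannot be told apart. The part of fibroblast content in the peptide results was not tested. In dnPI3K sham against Ntg sham hearts 0 of these 10 markers were called, beside 1.14% of all genes, with 2 at an unadjusted p below 0.05. Of the 8 cardiomyocyte markers 0 were called with MI in caPI3K and Ntg hearts, with 1 at an unadjusted p below 0.05 in caPI3K and 6 in Ntg hearts, and 1 fell in dnPI3K hearts.

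Markers of other cell types were also read in the comparisons with calls. Of all genes, 9.9% were called in caPI3K sham against dnPI3K sham hearts, a share that 1 of 10 markers does not exceed by much. The shares were 4.23% in caPI3K MI against dnPI3K MI and 2.59% in dnPI3K MI against Ntg MI hearts. In caPI3K sham against dnPI3K sham hearts 3 of 4 tested adipocyte markers fell, at sums of 1637 to 4080 in caPI3K sham against 5048 to 8605 in dnPI3K sham hearts, and 0 of 8 cardiomyocyte markers were called, with 3 at an unadjusted p below 0.05. There 1 of 10 fibroblast markers fell (*Tcf21*, -0.60, adjusted p = 0.00114), and 1 of 10 endothelial and endocardial markers (*Vwf*, -0.69, adjusted p = 0.00384), the endothelial sums being 13506 to 16788 in caPI3K sham against 15713 to 17211 in dnPI3K sham hearts. In caPI3K MI against dnPI3K MI hearts, where *Npr3* was lower, 2 of 8 smooth muscle and pericyte markers fell (*Acta2* and *Tagln*), at sums of 34310 to 35482 in caPI3K MI against 36924 to 43809 in dnPI3K MI hearts, and 1 of 10 fibroblast markers fell (*Tcf21*, -0.45, adjusted p = 0.0256). In dnPI3K MI against Ntg MI hearts, where *Npr3* rose, 2 of 10 endothelial and endocardial markers rose, at sums of 16909 to 20343 in dnPI3K MI against 13273 to 17018 in Ntg MI hearts, and 1 of 10 fibroblast markers rose (*Tcf21*, 0.60, adjusted p = 0.00435). The part of these cell types in the *Corin*, peptide and *Npr3* results was not tested.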

How the data were processed

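Heart RNA was read on 24 Affymetrix arrays. The deposited values are signal intensities made with MAS5, per the submitters' processing notes; the sources used here do not give the version, scaling target or detection calls. No further normalization was applied. The 64 control probe sets were left out. Probe sets above the 40th percentile of their array on at least 4 arrays were kept (33061), and the brightest of each gene was used (14763 genes). Signals were taken as log2(signal + 11.2), the pseudocount being the median signal divided by 10, which compresses changes of dim genes. Gene names came from the platform annotation, which leaves 932 probe sets with several genes and 9160 with none. Coordinates and promoters came from RefSeq, GRCm38.p6.

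A mean for each of 6 groups was fitted in limma 3.58.1 (R 4.3.3, with files read by data.table, version 1.17.8) with an intensity trend and 18 residual degrees of freedom. P-values were adjusted by Benjamini-Hochberg over all genes in each of 12 comparisons. SE and 95% intervals come from this model, SD from 4 arrays. The code was tested on simulated data. Plots used matplotlib 3.10.9 (Python 3.11.15). The number of arrays limits the precision.

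The 7 genes and the gene lists were chosen with earlier results of these data known. Named genes were the 7 genes, list members that were called (at most 4 a list and comparison, by smallest p), and the 5 genes most like *Nppa*, *Nppb* and *Npr3*. Genes called beyond that limit are counted but not all named. Alternatives were other pseudocounts (1, or the median divided by 2), quantile normalization, no filter, no trend, only the compared groups, 2 treatments of array numbers, arrays without Y-linked signal, other probe sets and leaving out arrays. What the array numbers stand for is not stated.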

Additional observations from a re-analysis of the deposited data

Results flagged for a closer look

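In 54 sets of 4 arrays (9 probe sets in 6 groups) each array was set against the others of its group, and 7 had an extreme array whose gap to its nearest neighbour took more of the group's range than Dixon's 95% limit for 4 values. Chance alone marks about 1 in 20 such groups. For *Nppa* in caPI3K MI hearts, replicate 3 was low (signal 35020, gap 0.852 of the range). For *Npr1* in caPI3K sham hearts, replicate 4 was low (17.2, 0.892). For *Npr3*, replicate 4 of caPI3K MI was high on the brightest probe set (1163, 0.83), and replicate 1 of dnPI3K MI was high on the dimmest (318, 0.896). *Corin* was low on dnPI3K sham replicate 3 (7210, 0.964) and on Ntg sham replicate 4 (5864, 0.862). For *Furin* in dnPI3K sham hearts, replicate 2 was low (492, 0.863), although it differed from its nearest neighbour only as 8.98 against 9.07 on the log2 scale. Ntg sham replicate 4 and dnPI3K MI replicate 1 are the arrays that stood apart over all genes.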

How the results depend on the processing

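The 7 genes gave 1606 results under the alternatives: 1543 kept their side of the threshold, 48 were no longer past it, 15 were newly past it, and 0 called results changed sign. Values below are the number of the 7 genes called; the cause of each shift was not tested. Quantile normalization gave 2 for MI in Ntg and 1 for MI in dnPI3K hearts. Without the filter dnPI3K MI against Ntg MI gave 0. Without the intensity trend MI in caPI3K, MI in Ntg, caPI3K MI against dnPI3K MI and dnPI3K MI against Ntg MI gave 0. With only the compared groups, MI in Ntg and dnPI3K sham against Ntg sham gave 0, and the MI effect in caPI3K minus that in dnPI3K gave 1. Without the sham arrays numbered 415 to 418, MI in Ntg and dnPI3K sham against Ntg sham gave 0. A term for array numbers under 1000 gave 1 for MI in caPI3K and 0 for dnPI3K MI against Ntg MI. Without the Y-linked arrays MI in caPI3K gave 1 (*Nppb*). Without both arrays that stand apart, chosen after seeing the data, MI in Ntg gave 2, the MI effects in caPI3K minus dnPI3K and in dnPI3K minus Ntg 1 each, caPI3K sham against Ntg sham 1, and both *Npr3* comparisons 0. Leaving out 1 array at a time gave 0 to 2 for MI in caPI3K, dnPI3K and Ntg hearts, 0 to 1 for the MI effect in dnPI3K minus that in Ntg, caPI3K sham against Ntg sham, caPI3K MI against dnPI3K MI and dnPI3K MI against Ntg MI, 3 to 3 for caPI3K sham against dnPI3K sham, and 1 to 1 for dnPI3K sham against Ntg sham. Over all genes, MI in Ntg hearts then gave 25 to 672 calls, the most without Ntg sham replicate 4. No paired analysis was possible because every array has a number of its own.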
